A study of Homo sapiens with 8 samples.

Results

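The genes described here are 9 regulators of mechanistic target of rapamycin complex 1 (mTORC1), taken by symbol. They were chosen with earlier results of these data known. They are the Sestrins SESN1, SESN2 and SESN3, the stress-induced inhibitor DDIT4, TSC2, the Rag GTPases RRAGC and RRAGD, the mTOR inhibitor DEPTOR and the translation repressor EIF4EBP1. All 9 are among the 58219 genes listed for each library and among the 13129 protein-coding genes that passed a filter on low counts and were tested. The RNA came from cultures of H929 and KMS11, established multiple myeloma (MM) cell lines that both carry a t(4;14) translocation. The cells were exposed for 24 h to 2 µM fluvastatin, a statin that inhibits HMG-CoA reductase in the mevalonate (MVA) pathway, or to ethanol, the solvent. Each of the 4 groups, H929 ethanol, H929 fluvastatin, KMS11 ethanol and KMS11 fluvastatin, had 2 biological replicates, so each line is 1 cell line and not a sample of patients. All 8 plasma cell markers looked at were present in every library, at 15.7 to 944 TPM (transcript abundance per length and library, as RSEM gives it), and of the genes of the t(4;14) translocation NSD2 was at 83.6 to 141 TPM and FGFR3 at 5.33 to 95.2 TPM. Of 8 markers of other cell types, CD14 was at 0 in every library and EPCAM was at 0 or 1 count in the H929 libraries but reached 35.9 TPM in KMS11. PECAM1 reached 7.98 TPM, CD3E 3.54 TPM, and COL1A1, HBB, MS4A1 and PAX5 stayed under 1 TPM. Libraries held 26702515 to 41910446 estimated fragment counts.

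mTORC1 is a kinase complex at the lysosome surface that drives protein synthesis and cell growth when amino acids and growth factors are plentiful. Amino acids reach it through the Rag GTPases, which work as a pair of RRAGA or RRAGB with RRAGC or RRAGD and recruit the complex to the lysosome. Sestrins hold this arm back by binding the GATOR2 complex, and SESN2 is known as a leucine sensor. Growth factors and stress reach mTORC1 through the TSC complex of TSC1, TSC2 and TBC1D7, which switches off the GTPase RHEB, and DDIT4 (also called REDD1) acts upstream of that complex. DEPTOR binds mTOR itself and is known for high expression in a part of myelomas. EIF4EBP1 (4E-BP1) is a substrate that holds the cap-binding factor EIF4E until mTORC1 phosphorylates it. SESN2 and DDIT4 are known targets of the stress-induced transcription factor ATF4, and SESN3 of FOXO factors.

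The start regions of SESN2, DDIT4, SESN3 and RRAGC, which rose in at least 1 line, are shown with that of TSC2, which was called in neither. Start windows of 300 bases, from 250 bases before the transcription start to 50 bases after it, came from RefSeq on GRCh38.p14. They are reported for 6 of the 9 genes and not for DEPTOR, EIF4EBP1 and RRAGD. Both strands were searched for TGATGNAA (the CARE motif that ATF4 binds with its partners), CACGTG (the E-box, which is also the core of the CLEAR motif bound by TFEB and its relatives) and GTAAACA (bound by FOXO factors). Letters in capitals in the sequences mark a match, and each window is written 5′ to 3′ in the direction of its gene.
SESN2, chr1:28259268-28259567, plus strand: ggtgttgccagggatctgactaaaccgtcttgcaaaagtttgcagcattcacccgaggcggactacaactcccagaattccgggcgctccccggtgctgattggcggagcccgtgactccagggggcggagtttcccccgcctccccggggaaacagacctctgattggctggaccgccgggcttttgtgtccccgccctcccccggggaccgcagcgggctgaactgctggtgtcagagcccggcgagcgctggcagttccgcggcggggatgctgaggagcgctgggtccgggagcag
DDIT4, chr10:72273674-72273973, plus strand: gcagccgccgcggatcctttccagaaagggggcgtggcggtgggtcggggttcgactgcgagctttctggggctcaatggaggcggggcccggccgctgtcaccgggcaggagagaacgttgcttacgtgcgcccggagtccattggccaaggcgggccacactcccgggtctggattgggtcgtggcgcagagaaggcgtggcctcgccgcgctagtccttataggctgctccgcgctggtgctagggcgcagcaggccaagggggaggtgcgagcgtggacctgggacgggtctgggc
SESN3, chr11:95232426-95232725, minus strand: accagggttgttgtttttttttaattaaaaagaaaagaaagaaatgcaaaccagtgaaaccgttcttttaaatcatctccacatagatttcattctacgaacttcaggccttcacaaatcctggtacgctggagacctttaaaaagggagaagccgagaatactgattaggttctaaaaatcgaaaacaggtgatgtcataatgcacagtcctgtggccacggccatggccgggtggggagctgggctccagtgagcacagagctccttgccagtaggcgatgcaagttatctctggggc
RRAGC, chr1:38859723-38860022, minus strand: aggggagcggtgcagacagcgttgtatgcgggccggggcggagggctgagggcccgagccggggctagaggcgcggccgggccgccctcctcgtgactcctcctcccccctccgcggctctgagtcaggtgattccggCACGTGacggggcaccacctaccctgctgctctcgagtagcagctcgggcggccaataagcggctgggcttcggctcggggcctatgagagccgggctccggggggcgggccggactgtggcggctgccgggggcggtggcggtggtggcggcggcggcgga
TSC2, chr16:2047735-2048034, plus strand: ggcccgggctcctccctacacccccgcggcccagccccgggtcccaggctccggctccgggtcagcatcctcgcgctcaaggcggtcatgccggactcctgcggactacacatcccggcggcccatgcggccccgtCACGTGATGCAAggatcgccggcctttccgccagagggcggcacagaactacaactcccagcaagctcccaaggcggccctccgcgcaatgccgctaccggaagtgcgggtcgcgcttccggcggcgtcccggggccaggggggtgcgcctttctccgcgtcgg

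RRAGC held CACGTG, which reads the same on both strands, with its first base 112 bases before the start. TSC2 held CACGTG from 114 bases and TGATGNAA from 110 bases before the start, so that the end of one match overlaps the beginning of the other. A later start of TSC2 has a window of its own, chr16:2047952-2048251, which is not shown and held no match. None of the 3 motifs was spelled in the windows of SESN1, SESN2, SESN3 and DDIT4, which says only that these letters are not in these windows. Of all 35116 windows in the RefSeq table, 7.26% held CACGTG, 3.62% held TGATGNAA and 3.42% held GTAAACA. A match is a spelling and not a measured binding site.

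Fluvastatin raised 5 of the 9 genes in H929 and 2 of the 9 in KMS11, and it lowered none in either line. In H929 these were SESN2, SESN3, DDIT4, RRAGC and DEPTOR, and in KMS11 they were SESN2 and RRAGC. For scale, 22.7% of all tested genes were called higher and 19.3% lower in H929, and 2.58% were called higher and 0.533% lower in KMS11. With per-library trends in GC content and length taken out, all 9 were called in H929, where 26.6% of all genes were called higher and 26.6% lower. SESN1 (-0.35, adjusted p = 0.00623) and RRAGD (-0.20, adjusted p = 0.0168) were then called lower. The comparisons share libraries, and in RNA from whole cultures a change in every cell and a change in some of the cells cannot be told apart. The median log2 fold change of the 9 genes was 0.93 in H929 and 0.32 in KMS11, beside 0.02 and 0.00 over all genes tested. With both lines fitted together and the line as a term, SESN2, RRAGC and DDIT4 rose, beside 6.50% of all genes called higher and 3.93% called lower. A gene is called where its adjusted p is under 0.05, by the quasi-likelihood F test of edgeR and the Benjamini-Hochberg method over all tested genes, and SE stands for standard error. Levels within a gene are given as CPM, counts scaled to a common library size by the TMM method of edgeR, and levels between genes as TPM, which accounts for transcript length.

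**Figure D1:**
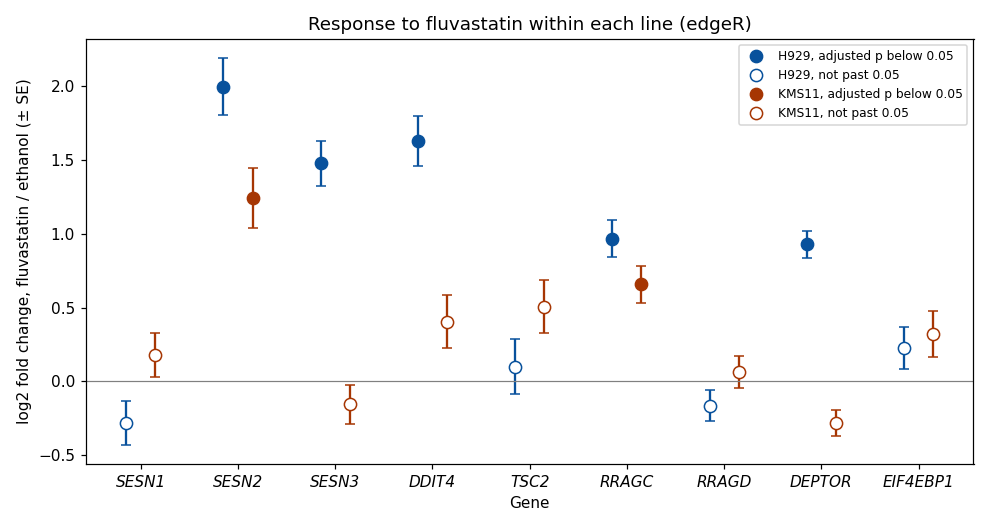
Log2 fold change of each of the 9 genes, fluvastatin over ethanol, in H929 (blue) and KMS11 (brown), with the standard error as bars. Filled points have an adjusted p under 0.05: 5 genes in H929, from 0.93 for DEPTOR to 2.00 for SESN2, and 2 in KMS11, SESN2 at 1.25 and RRAGC at 0.66.

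SESN2 (ENSG00000130766.4, chromosome 1, 28259518 to 28282491 of GRCh38) gave the largest rise of the 9 genes in either line. Its level in H929 was 28.0 and 18.7 CPM in ethanol and 104 and 83.1 CPM in fluvastatin, a log2 fold change of 2.00 (SE 0.19, adjusted p = 4.83e-05). In KMS11 it was 6.37 and 6.48 CPM in ethanol and 16.8 and 13.8 CPM in fluvastatin, a log2 fold change of 1.25 (SE 0.20, adjusted p = 0.0113). Every fluvastatin library lay above both ethanol libraries of its line, and the treated KMS11 libraries stayed below both untreated H929 libraries. Across both lines the log2 fold change was 1.64 (SE 0.20, adjusted p = 0.00366). The KMS11 call was lost without either KMS11 ethanol library, while the log2 fold change stayed at 1.20 and 1.23. These fits leave a single library in that group, and fewer of all genes were called in them. With limma on log2(TPM + 1) the KMS11 call was lost too (adjusted p = 0.0760). The response in KMS11 was smaller than in H929 by 0.75 on the log2 scale, which did not pass the test of the difference (SE 0.28, adjusted p = 0.0760). That difference passed in 8 of 18 alternatives, DESeq2 among them (-0.80, adjusted p = 0.0194).

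SESN3 (ENSG00000149212.11, chromosome 11, 95165513 to 95232541) rose in H929, where its starting level was low. H929 held 7.76 and 7.08 CPM in ethanol and 18.2 and 23.2 CPM in fluvastatin, a log2 fold change of 1.48 (SE 0.15, adjusted p = 6.48e-05). KMS11 held 61.5 and 53.0 CPM in ethanol and 52.1 and 50.7 CPM in fluvastatin, a log2 fold change of -0.16 that did not pass (SE 0.13, adjusted p = 0.516). All KMS11 libraries lay above all H929 libraries, treated ones included. The difference of responses, KMS11 minus H929, was -1.63 (SE 0.20, adjusted p = 0.000799) and passed in 18 of 18 alternatives.

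SESN1 (ENSG00000080546.13, chromosome 6, 108984309 to 109094846) did not pass the test in either line. Its CPM in H929 was 34.2 and 41.9 in ethanol and 28.3 and 34.3 in fluvastatin, and these ranges overlap. Between libraries of the same replicate number, the fluvastatin value was the lower each time. In KMS11 it was 19.0 and 18.7 CPM in ethanol and 19.7 and 23.0 in fluvastatin. The log2 fold changes were -0.28 (SE 0.15, adjusted p = 0.153) in H929 and 0.18 (SE 0.15, adjusted p = 0.492) in KMS11. Treated and untreated libraries did not overlap in KMS11. With GC content and length offsets SESN1 was also called higher in KMS11 (0.33, adjusted p = 0.0429), and the difference of responses was then 0.68 (adjusted p = 0.00208).

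The make-up of the Sestrin transcripts differed between the lines and with treatment. In H929, SESN2 made up 33.0% ± 10.6 of the summed Sestrin TPM in ethanol and 68.3% ± 7.13 in fluvastatin (SD, n = 2). SESN1 held 63.3% ± 10.98 of it in ethanol and 26.1% ± 5.86 in fluvastatin (SD, n = 2). The sum itself was 9.94 and 10.3 TPM in the ethanol libraries and 20.0 and 18.9 TPM in the fluvastatin libraries of H929, which do not overlap. In KMS11 the sum was 10.8 and 9.86 TPM in ethanol and 10.6 and 11.7 TPM in fluvastatin, and these overlap. SESN3 held 40.4% ± 3.53 of the KMS11 sum in ethanol and 31.5% ± 1.21 in fluvastatin, while SESN2 held 12.7% ± 0.349 and 25.5% ± 3.47 (SD, n = 2). These shares are descriptions within each library, with no test.

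DDIT4 (ENSG00000168209.4, chromosome 10, 72273919 to 72276036) rose in H929 to the highest mean TPM of the 9 genes there, with values that overlap those of EIF4EBP1. H929 held 84.6 and 61.0 CPM in ethanol and 257 and 193 CPM in fluvastatin, a log2 fold change of 1.63 (SE 0.17, adjusted p = 6.70e-05). KMS11 held 14.1 and 14.1 CPM in ethanol and 19.3 and 18.1 CPM in fluvastatin, a log2 fold change of 0.41 that did not pass (SE 0.18, adjusted p = 0.220). The fluvastatin libraries of KMS11 lay above its ethanol libraries and below every H929 library. The difference of responses, KMS11 minus H929, was -1.22 (SE 0.24, adjusted p = 0.00706) and passed in 18 of 18 alternatives. The rise across both lines was 1.04 (SE 0.25, adjusted p = 0.0358). Leaving out any 1 of the 4 H929 libraries ended this call, while the log2 fold change stayed at 0.81 to 1.02. Fewer of all genes were called in those fits too. Limma on log2(TPM + 1) gave the rise across both lines an adjusted p of 0.0584.

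TSC2 (ENSG00000103197.16, chromosome 16, 2047967 to 2089491) was called in neither line, and 1 library decides its value in KMS11. H929 held 53.4 and 44.7 CPM in ethanol and 57.5 and 47.7 CPM in fluvastatin (log2 fold change 0.10, SE 0.19, adjusted p = 0.699). KMS11 held 84.3 and 86.2 CPM in ethanol and 147 and 95.7 CPM in fluvastatin (log2 fold change 0.51, SE 0.18, adjusted p = 0.152). Without replicate 2 of KMS11 fluvastatin the log2 fold change was 0.74 and passed (adjusted p = 0.00406). The difference of responses was then 0.68 (adjusted p = 0.0118), beside 0.41 (adjusted p = 0.281) with all libraries. Without replicate 1, the library at 147 CPM, the log2 fold change was 0.16 (adjusted p = 0.713) and the difference 0.086 (adjusted p = 0.797). The abundance-weighted mean length of TSC2 transcripts was 2589 and 2106 bases in KMS11 ethanol and 2909 and 2814 bases in KMS11 fluvastatin, so its TPM in KMS11 (26.6 ± 3.19 and 27.1 ± 5.57, SD, n = 2) differed less than its CPM. PKD1 overlaps TSC2 on the other strand, and it had 135 and 113 counts in KMS11 ethanol and 248 and 183 counts in KMS11 fluvastatin, against 3150 to 4065 counts of TSC2. Whether the counting used strand is not given in the sources used here, so its part in the TSC2 value was not tested. With GC content and length offsets TSC2 was called higher in H929 (0.23, adjusted p = 0.0207). Its difference of responses was then -0.081 (adjusted p = 0.582). Without the filter on low counts TSC2 was called in KMS11 (0.50, adjusted p = 0.0395), where 5.43% of all genes were called higher.

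RRAGC (ENSG00000116954.7, chromosome 1, 38838198 to 38859772) rose in both lines, and RRAGD, the gene that takes the same place in the Rag pair, was called in neither. RRAGC held 26.7 and 29.2 CPM in H929 ethanol and 49.9 and 59.6 CPM in H929 fluvastatin, a log2 fold change of 0.97 (SE 0.12, adjusted p = 0.000254). In KMS11 it held 23.3 and 23.3 CPM in ethanol and 34.6 and 39.0 CPM in fluvastatin, a log2 fold change of 0.66 (SE 0.12, adjusted p = 0.0222). Treated and untreated libraries did not overlap in either line. Across both lines the log2 fold change was 0.81 (SE 0.11, adjusted p = 0.00586). The KMS11 call was lost without either KMS11 ethanol library, while the log2 fold change stayed at 0.635 and 0.627. These fits leave a single library in that group, and fewer of all genes were called in them. With limma on log2(TPM + 1) the KMS11 call was lost too (adjusted p = 0.141). The difference of responses was -0.31 (SE 0.18, adjusted p = 0.226), and a p that misses the threshold does not show that the lines respond alike.

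RRAGD (ENSG00000025039.14, chromosome 6, 89364616 to 89412273) stood much higher in H929 than in KMS11 under both treatments. H929 held 240.1 and 276 CPM in ethanol and 214 and 247 CPM in fluvastatin (log2 fold change -0.16, SE 0.11, adjusted p = 0.248). KMS11 held 50.3 and 49.8 CPM in ethanol and 49.9 and 54.5 CPM in fluvastatin (log2 fold change 0.06, SE 0.11, adjusted p = 0.770). Treated and untreated libraries overlapped in both lines. In H929 the fluvastatin value was the lower each time between libraries of the same replicate number. With that number as a block in edgeR, the H929 response did not pass either (adjusted p = 0.131). RRAGD made up 90.9% ± 0.363 of the summed RRAGC and RRAGD TPM in H929 ethanol, 81.9% ± 0.476 in H929 fluvastatin, 68.7% ± 0.0542 in KMS11 ethanol and 58.7% ± 1.59 in KMS11 fluvastatin (SD, n = 2). Among the partners in the Rag pair, RRAGA was called in neither line (log2 fold change 0.09, adjusted p = 0.528 in H929 and -0.10, adjusted p = 0.605 in KMS11). RRAGB rose in H929 from 6.24 ± 1.42 to 10.7 ± 1.46 CPM (SD, n = 2, log2 fold change 0.78, adjusted p = 0.0110), and in KMS11 its log2 fold change was 0.18 (adjusted p = 0.598).

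DEPTOR (ENSG00000155792.9, chromosome 8, 119873717 to 120050918) was between 135 and 148 CPM in every ethanol library and moved apart between the lines with treatment. H929 held 135 and 137 CPM in ethanol and 246 and 272 CPM in fluvastatin, a log2 fold change of 0.93 (SE 0.09, adjusted p = 4.83e-05). KMS11 held 148 and 143 CPM in ethanol and 117 and 123 CPM in fluvastatin, with no overlap, and its log2 fold change of -0.28 did not pass (SE 0.09, adjusted p = 0.120). The difference of responses, KMS11 minus H929, was -1.21 (SE 0.13, adjusted p = 0.000395) and passed in 18 of 18 alternatives. MTOR, the kinase that DEPTOR binds, was called in neither line (log2 fold change -0.23, adjusted p = 0.0829 in H929 and -0.03, adjusted p = 0.899 in KMS11). DEPTOR had 2.66 ± 0.0557 times the TPM of MTOR in H929 ethanol and 5.92 ± 0.343 times in H929 fluvastatin (SD, n = 2). In KMS11 the ratio was 1.99 ± 0.0517 in ethanol and 1.74 ± 0.180 in fluvastatin (SD, n = 2).

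**Figure D2:**
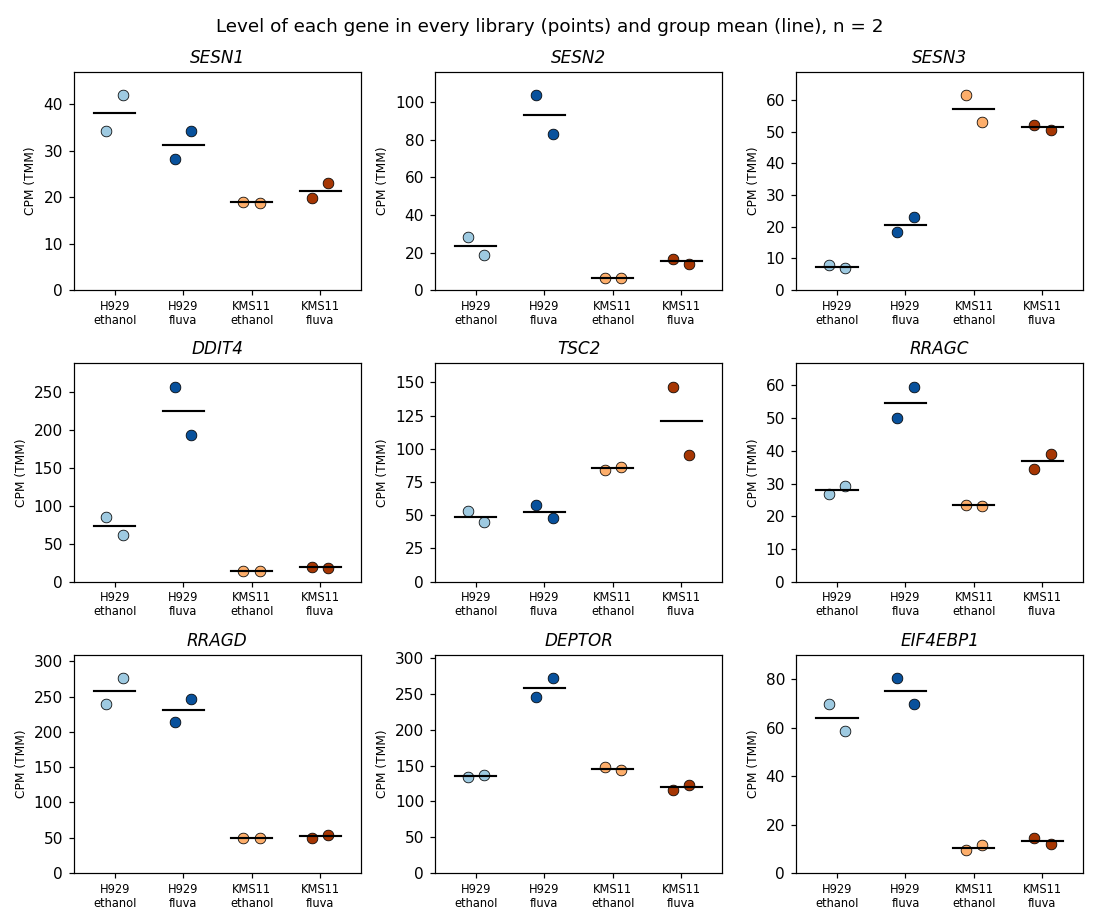
CPM of each of the 9 genes in every library (points) with the mean of the 2 libraries of a group (line), each axis starting at 0. The treated H929 libraries stand apart for SESN2, DDIT4 and DEPTOR, with SESN2 at 83.1 and 104 CPM, and SESN3 is higher in every KMS11 library than in any H929 library.

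EIF4EBP1 (ENSG00000187840.4, chromosome 8, 38030534 to 38060365) did not pass the test in either line. H929 held 69.9 and 58.6 CPM in ethanol and 80.5 and 70.0 CPM in fluvastatin (log2 fold change 0.23, SE 0.14, adjusted p = 0.228). KMS11 held 9.58 and 11.5 CPM in ethanol and 14.4 and 11.9 CPM in fluvastatin (log2 fold change 0.32, SE 0.15, adjusted p = 0.252). EIF4EBP1 has the highest GC content of the 9 genes, at 62.9% of its longest transcript. With per-library trends in GC content and length taken out, it was called higher in H929 (0.51, adjusted p = 0.000925), was -0.04 (adjusted p = 0.863) in KMS11, and differed between the lines by -0.55 (adjusted p = 0.0139).

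EIF4E, the cap-binding factor that the 4E-BPs hold, fell in H929 by 0.36 on the log2 scale (SE 0.13, adjusted p = 0.0480), and in KMS11 its log2 fold change was -0.31 (SE 0.13, adjusted p = 0.198). EIF4E has estimated counts that are not whole, so that it shares reads with other genes and its level is less certain. The ratio of EIF4EBP1 to EIF4E in TPM was 1.18 and 0.818 in the H929 ethanol libraries and 2.06 and 1.51 in the H929 fluvastatin libraries. In KMS11 it was 0.101 and 0.115 in ethanol and 0.180 and 0.132 in fluvastatin, so every H929 library lay above every KMS11 library. With EIF4EBP2 and EIF4EBP3 added, the ratio was 1.11 ± 0.271 and 1.95 ± 0.393 in H929 and 0.222 ± 0.00844 and 0.285 ± 0.0388 in KMS11, ethanol before fluvastatin (SD, n = 2). EIF4EBP2, another 4E-BP, was called in neither line (log2 fold change 0.08, adjusted p = 0.502 in H929 and 0.01, adjusted p = 0.978 in KMS11). EIF4EBP3 had at most 9.40 counts in any library and was not tested.

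**Figure D3:**
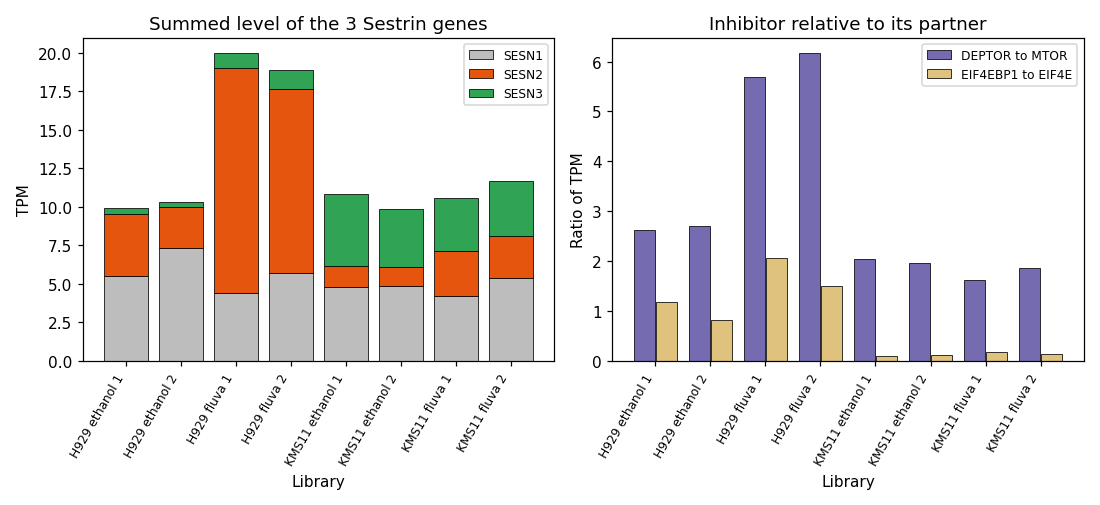
Left, TPM of SESN1, SESN2 and SESN3 stacked in each library; right, the ratio of DEPTOR to MTOR and of EIF4EBP1 to EIF4E in TPM in each library, with both axes starting at 0. The Sestrin sum is 20.0 and 18.9 TPM in the treated H929 libraries and between 9.86 and 11.7 TPM in the other libraries, and the DEPTOR to MTOR ratio is 5.68 and 6.17 in the treated H929 libraries.

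In ethanol the lines differed for 7 of the 9 genes, beside 35.6% of all genes called higher and 36.4% called lower in KMS11. SESN3 was higher in KMS11 by a log2 fold change of 2.95 (SE 0.15, adjusted p = 1.13e-07) and TSC2 by 0.80 (SE 0.18, adjusted p = 0.00299). Lower in KMS11 were EIF4EBP1 (-2.61, adjusted p = 2.87e-07), RRAGD (-2.37, adjusted p = 6.76e-08), DDIT4 (-2.37, adjusted p = 1.50e-06), SESN2 (-1.86, adjusted p = 2.06e-05) and SESN1 (-1.01, adjusted p = 0.000157). RRAGC (-0.27, adjusted p = 0.0799) and DEPTOR (0.10, adjusted p = 0.336) did not pass. On the TPM scale SESN1 did not pass (-0.34, adjusted p = 0.112) and DEPTOR did (0.60, adjusted p = 0.00139), where the median of all genes stood at 0.32 in place of -0.02. With GC content and length offsets, DEPTOR was lower in KMS11 (-0.30, adjusted p = 0.000879), opposite to the TPM scale, and so was RRAGC (-0.72, adjusted p = 8.36e-06).

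The order of levels within a group was read in TPM. In H929 ethanol, RRAGD (54.9 ± 5.996 TPM) and EIF4EBP1 (53.7 ± 6.86) came first and did not differ beyond their spread, followed by DEPTOR (26.6 ± 0.0495) and DDIT4 (23.5 ± 6.06), which overlap too (SD, n = 2). TSC2, SESN1 and RRAGC followed at 7.08 to 5.50 TPM with neighbours overlapping, then SESN2 at 3.34 ± 0.983 and SESN3 last at 0.370 ± 0.0283 TPM (SD, n = 2). In H929 fluvastatin, DDIT4 (71.2 ± 14.7 TPM) and EIF4EBP1 (63.1 ± 5.54) led with overlapping values, and SESN2 stood at 13.3 ± 1.90 TPM, above RRAGC, TSC2 and SESN1 (SD, n = 2). KMS11 had DEPTOR first and TSC2 second, at 40.9 ± 3.16 and 26.6 ± 3.19 TPM in ethanol and 30.5 ± 3.35 and 27.1 ± 5.57 TPM in fluvastatin, where they overlap (SD, n = 2). SESN2 was the lowest of the 9 genes in KMS11 under both treatments, at 1.32 ± 0.0495 and 2.83 ± 0.191 TPM (SD, n = 2).

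The difference of responses passed the test for 3 of the 9 genes, SESN3, DDIT4 and DEPTOR, all with the smaller or opposite value in KMS11. Over all genes, 11.5% had a lower and 11.7% a higher response in KMS11 than in H929. The median difference of the 9 genes was -0.31 on the log2 scale, beside 0.00 over all genes tested.

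Of 90 other genes of the pathway in 9 lists, 88 were tested. In H929, 28 of the 88 rose and 7 fell, where 22.7% of all tested genes were called higher and 19.3% lower. In KMS11 DDIT3 alone was called, where 2.58% of all genes were called higher and 0.533% lower. The median log2 fold change of the 88 was 0.10 in H929 and 0.07 in KMS11. The transcription factors known to act on these genes held the most calls, with 9 of 12 higher in H929 and none lower. DDIT3 (CHOP), a stress factor downstream of ATF4, rose from 7.07 ± 0.493 to 27.3 ± 3.90 CPM in H929 (SD, n = 2, log2 fold change 1.95, adjusted p = 2.22e-05) and from 3.94 ± 0.226 to 8.18 ± 0.538 CPM in KMS11 (SD, n = 2, log2 fold change 1.05, adjusted p = 0.00935). ATF4 rose in H929 by 0.70 (adjusted p = 0.00166), and its 0.31 in KMS11 did not pass (adjusted p = 0.190). CEBPB (0.87, adjusted p = 0.000497), FOXO3 (0.66, adjusted p = 0.000474) and FOXO1 (0.61, adjusted p = 0.00230) also rose in H929. TP63, also counted as higher there, had at most 14 counts in any library.

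Among inputs from AMPK, LKB1 and AKT, 5 of 16 tested genes rose in H929, where 22.7% of all genes did, and 1 fell, STK11, the gene of LKB1 (-0.58, adjusted p = 0.0187), named after its value was seen. TRIB3, an ATF4 target that binds AKT, rose there by 1.31 (adjusted p = 2.48e-05) and had 0.46 in KMS11 (adjusted p = 0.0560). PIK3CA, the catalytic subunit of PI3-kinase alpha (0.91, adjusted p = 6.77e-05), and CAB39, a partner of LKB1 (0.37, adjusted p = 0.0151), rose in H929. In the mTORC1 and mTORC2 subunits, 2 of 10 rose in H929, no more than the 22.7% of all genes called higher there: RICTOR (0.68, adjusted p = 0.000706) and PRR5 (1.09, adjusted p = 0.0168). TTI1 and TELO2, which help assemble mTOR, fell by 0.69 (adjusted p = 0.000369) and 1.34 (adjusted p = 0.00847), and PRR5L of mTORC2 fell by 1.54 (adjusted p = 0.000959).

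Of the substrates and cap-binding genes, 5 of 18 rose in H929, beside 22.7% of all genes, and 1, EIF4E, fell. PDCD4, an inhibitor of the helicase EIF4A, rose from 18.4 ± 1.23 to 51.8 ± 1.82 CPM in H929 (SD, n = 2, log2 fold change 1.497, adjusted p = 2.96e-05) and had -0.28 in KMS11 (adjusted p = 0.228). TFEB, the lysosome gene regulator, rose in H929 (1.09, adjusted p = 0.00932) and across both lines (1.04, adjusted p = 0.0223), and its 0.98 in KMS11 did not pass (adjusted p = 0.0905). GRB10 (1.09, adjusted p = 0.0113), ULK1, the autophagy kinase (0.83, adjusted p = 0.0326), and MITF (0.51, adjusted p = 0.0216) rose in H929. Upstream of the Rags, KICS2 of KICSTOR (0.73, adjusted p = 0.000964), BMT2, the methionine-pathway sensor also called SAMTOR (0.83, adjusted p = 0.000903), LAMTOR3 of the Ragulator (0.48, adjusted p = 0.00629), SLC38A9, an arginine sensor of the lysosome (0.29, adjusted p = 0.0349), and FNIP1, a partner of folliculin (0.50, adjusted p = 0.00826), rose in H929. In H929, 3 of 8 Rag and Ragulator genes were called higher, beside 22.7% of all genes. So were 1 of 12 of GATOR and KICSTOR, 1 of 5 other amino acid sensors and 1 of 3 of folliculin and its partners. SEH1L and SEC13 of GATOR2 fell in H929 by 0.53 (adjusted p = 0.0116) and 0.33 (adjusted p = 0.0333). These are 2 of the 12 of GATOR and KICSTOR, beside 19.3% of all genes called lower. TBC1D7 was the member of the TSC complex list that rose in H929 (0.76, adjusted p = 0.000876), and TSC1 was called in neither line (0.14, adjusted p = 0.277 and 0.05, adjusted p = 0.764).

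**Figure D4:**
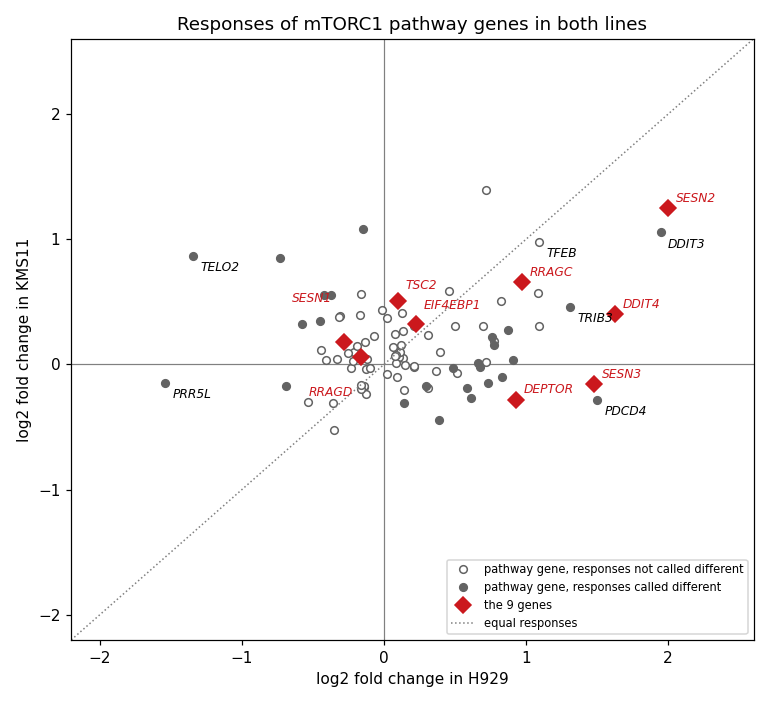
Log2 fold change in H929 (horizontal) against KMS11 (vertical) for 86 tested pathway genes (circles) and the 9 genes (diamonds), with 2 other tested genes of the lists not plotted. Filled circles mark the 26 pathway genes whose responses were called different between the lines, and DDIT3 lies close to SESN2, at 1.95 and 1.05.

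The genes whose levels followed each of the 9 most closely were found by Pearson's r of log2 CPM over the 8 libraries, among the 10586 genes whose mean log2 CPM reached 1. SESN2 was followed by SELPLG (r = 0.996), PTPN18 and DDAH2, DDIT4 by DAPK1 (0.998), ARHGEF2 and PPOX, and DEPTOR by RSPRY1 (0.996), KMT5B and RC3H1. SESN3 was followed by SLX4IP (0.999), TOB1 and PLSCR1, and RRAGC by TMCC3 (0.992), KCTD9 and MYL12A. For SESN1, RRAGD, EIF4EBP1 and TSC2 the first were ZNF799 (0.988), DDR2 (0.999), AQP3 (0.999) and CUX1 (0.990). The 8 points are 2 lines under 2 treatments and share the gap between the lines, so these values describe a pattern over 4 groups and carry no test.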

How the data were processed

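RNA from H929 and KMS11 cells was sequenced as stranded total RNA libraries after ribosomal RNA depletion, in 8 libraries. The authors aligned paired-end reads to hg38 with STAR 2.5.2b and quantified genes with RSEM 1.3.0, per the labels, and deposited expected counts (raw fragment estimates without normalization) and TPM (RSEM's abundance by effective length). Whether RSEM used the strand is not given in the sources used here. Gene symbols, positions and biotypes came from GENCODE release 44, while the authors used an earlier one.

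After rounding, the expected counts were fitted by edgeR 4.0.16 in R 4.3.3 (filterByExpr, at least 10 counts in enough libraries and 15 in total, TMM, quasi-likelihood F test, Benjamini-Hochberg adjustment over 13129 protein-coding genes). The standard error was taken from the log2 fold change and the root of F. The fit across both lines had the line as a term, and the other 4 comparisons came from 4 group means. Total counts per library were 26702515 to 41910446, and the precision of each value also rests on the spread between 2 replicates. The fits were tested on simulated data.

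The 9 genes, the pathway lists and the motifs were chosen with earlier results of these data known. Pathway genes named are those past the threshold in either line, up to 5 a list by adjusted p, with set ones (EIF4E, EIF4EBP2, EIF4EBP3, MTOR, TSC1, RRAGA, RRAGB, ATF4, DDIT3). The 3 genes most like each of the 9 are named by Pearson's r. Alternatives were DESeq2 1.42.0, limma 3.58.1 on log2(TPM + 1), other scalings, filters and gene sets, no line term, GC content and length offsets, a replicate block and leaving out each library. A few withheld genes are not reported here.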

Additional observations from a re-analysis of the deposited data

Results flagged for a closer look

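With 2 libraries a group, no library could be tested as standing apart from its group. The values here are log2 differences of responses, KMS11 minus H929, whose own test passed (quasi-likelihood F test of edgeR, Benjamini-Hochberg adjusted). This held for 3 of the 9 genes, SESN3 (-1.63), DDIT4 (-1.22) and DEPTOR (-1.21), and for 16 of the 27 pathway genes named for a call in either line, a choice that favours a difference. Over all 88 pathway genes tested the response was lower in KMS11 for 18 and higher for 9, beside 11.5% and 11.7% of all genes.

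The response was lower in KMS11 for PDCD4 (-1.78), BMT2 (-0.93), DDIT3 (-0.89), FOXO1 (-0.88), KICS2 (-0.88), PIK3CA (-0.87), TRIB3 (-0.85), RICTOR (-0.70), FOXO3 (-0.65), CEBPB (-0.59), TBC1D7 (-0.54), LAMTOR3 (-0.51) and SLC38A9 (-0.47). It was higher in KMS11 for TELO2 (2.21), PRR5L (1.39) and TTI1 (0.52), which fell in H929. TELO2 stood at 4.53 ± 0.0196 CPM in KMS11 ethanol and 8.31 ± 3.97 CPM in KMS11 fluvastatin (SD, n = 2), so its treated libraries there lay far apart.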

How the results depend on the processing

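Of 819 log2 fold changes of the 9 genes under 19 alternatives, 760 kept their direction and their side of the threshold, 23 passed it newly, 16 no longer passed and 20 turned direction. Of 864 for called pathway genes, 747 kept both and 117 no longer passed. The 28 within-library shares and ratios are the same by construction when computed from CPM per length. The number of the 9 genes called stayed within 1.5 times in 84 of 91 cases. Without the line term it was 0 across both lines, where 0.0305% of all genes were called higher and 0.00% lower. Limma on log2(TPM + 1) called 0.967% of all genes higher and 0.731% lower in KMS11. With GC content and length offsets the number of the 9 genes called was 9 in H929, beside 26.6% of all genes called higher and 26.6% lower. It was 7 for the difference of responses, beside 20.5% of all genes called higher and 12.9% lower. In KMS11 it was 0 with limma and 0 to 3 when single libraries were left out. Each of those fits with a library left out has a group with a single library. The number was 0 without either KMS11 ethanol library, where fewer of all genes were called than with all libraries. It was 3 without replicate 2 of KMS11 fluvastatin, where more of all genes were called. At both ends the number thus moved with the calling over all genes.

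Replicate numbers were not taken to pair the libraries in the main fit. Deviations of same-numbered libraries correlated at 0.298 in H929 and 0.0344 in KMS11 over 13129 genes. The value in H929 is no reason against pairing there, and whether same-numbered libraries were handled together was not tested. The replicate block gave 4 calls among the 9 genes in KMS11, with DDIT4 (adjusted p = 0.0253) and TSC2 (adjusted p = 0.0415) added, where 8.84% of all genes were then called higher. With the block, DDIT4 across both lines did not pass (adjusted p = 0.102), the SESN2 difference did (adjusted p = 0.00828), and so did RRAGC at baseline (adjusted p = 0.0344). It changed no other call of the 9 genes.

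Directions turned with limma on log2(TPM + 1) for SESN1 (-0.018) and RRAGD (-0.11) in KMS11, for the differences of TSC2 (-0.20) and EIF4EBP1 (-0.056), and for RRAGC at baseline (0.19). With GC content and length offsets they turned for EIF4EBP1 in KMS11 (-0.042), the differences of TSC2 (-0.081) and EIF4EBP1 (-0.55), and DEPTOR at baseline (-0.30, adjusted p = 0.000879). With single libraries left out, the range crossed 0 for SESN1 (-0.18 to 0.055) and RRAGD (-0.14 to 0.012) across both lines, TSC2 in H929 (-0.042 to 0.23), RRAGD in KMS11 (-0.050 to 0.12) and the EIF4EBP1 difference (-0.036 to 0.23). The cause was not tested.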
